A study of Mus musculus with 8 samples.

Results

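Conventional type 2 dendritic cells (cDC2) were read out among ocular CD45+ leukocytes of mice by sequencing the RNA of single cells together with ADTs, DNA barcodes on antibodies that count surface proteins in the same cells. A cell was taken as cDC2 by values measured in it: at least 5 UMIs (unique molecular identifiers, each marking 1 captured molecule) of the MHC class II gene H2-Aa and detection of at least 2 of the 4 genes Cd209a, Flt3, Clec10a and Zbtb46. It also had to hold 0 UMIs of Xcr1, Clec9a, Ccr7, Cd3e, Cd79a and Ncr1, and not both 2 or more UMIs of Lyz1 and 1 or more of Retnla. This gave 346 cDC2 of 11223 kept cells (3.08%), of which 75 came from Nr4a1-/- laser eyes, 153 from WT laser eyes, 56 from Nr4a1-/- control eyes and 62 from WT control eyes. Because the members were selected on these RNA values, the RNA of the same cells describes them and does not test their identity.

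cDC2 are myeloid cells that take up antigen, present it on MHC class II and prime CD4+ T cells, and they are commonly separated from cDC1, which cross-present to CD8+ T cells. They depend on the growth factor receptor encoded by Flt3 and on the transcription factors IRF4 and ZBTB46, and carry C-type lectins such as CD209a and CD301. Mature DCs that leave a tissue switch on the chemokine receptor CCR7, and the rule left out cells with any Ccr7 UMI. Nr4a1 encodes an orphan nuclear receptor that is needed for the maturation of non-classical monocytes.

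The 4 libraries were Nr4a1-/- mice 3 days after laser treatment, WT mice 3 days after laser treatment, Nr4a1-/- mice with sham treatment (control) and WT mice with sham treatment (control). Laser treatment placed 8 burns in each eye, the injury that starts choroidal neovascularization. All mice were females of 10 to 12 weeks bred in house, and posterior eye cups were pooled from 22 mice for each control library and from 11 to 12 mice for each laser library before live CD45+ cells were sorted. Each group was therefore 1 library of pooled animals, so the comparisons between conditions have no replicate check and carry no p-value. Intervals in brackets are 95% intervals of counting error only. Nr4a1 was disrupted in every cell of the knockout mice, and the labels give C57BL/6J for all samples while the methods give a mixed B6;129S2 line for Nr4a1-/- mice, so strain background and genotype cannot be told apart. The Nr4a1-/- control library also carries a library number from another series than the other 3, which cannot be told apart from its group.

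Depth differed between the libraries. The median cDC2 held 6539 UMIs in Nr4a1-/- laser eyes, 14068 in WT laser eyes, 11934 in Nr4a1-/- control eyes and 10682 in WT control eyes, and the summed cDC2 counts were 557016, 2165214, 682742 and 695840 UMIs in the same order. Levels are given as counts per 1000000 UMIs of the summed cDC2 (CPM), on which 3 UMIs are worth 5.39, 1.39, 4.39 and 4.31 CPM in that order. Any 2 of the 4 libraries shared 1 to 7 cell barcodes, no barcode was a cDC2 in both, and 2 cDC2 barcodes occurred in another library. Doublets were limited by the upper bound of 5000 detected genes and by the excluded lymphocyte genes, and no doublet caller was run.

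The median cDC2 held 58 H2-Aa UMIs in the Nr4a1-/- laser library, 116 in WT laser, 106.5 in the Nr4a1-/- control library and 74 in WT control. Few cells lay near that bound: 2, 2, 1 and 0 cDC2 held 5 or 6 UMIs in the same order, and 3, 2, 1 and 1 cells met the other conditions with 3 or 4 UMIs. The marker bound was crowded. Exactly 2 of the 4 markers were detected in 53 of 75, 76 of 153, 19 of 56 and 31 of 62 cDC2, and 109, 305, 54 and 92 cells stood just outside with 1 marker. Cells just outside held a median of 5, 23, 3 and 17.5 UMIs of the macrophage complement gene C1qa, against 0 in cDC2 of every library.

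The markers chosen by the rule were present in every library. Cd209a, a C-type lectin, stood at 332 CPM in Nr4a1-/- laser, 506 CPM in WT laser, 769 CPM in Nr4a1-/- control and 655 CPM in WT control cDC2. Genes of the cDC2 program outside the rule were also found. Mgl2, which encodes CD301b and shares sequence with its neighbour Clec10a, had 402, 388, 794 and 757 CPM in the same order. Irf4 had 95.1, 101, 120.1 and 90.5 CPM, and Sirpa, which encodes CD172a, had 176, 121, 99.6 and 155 CPM. These genes were also found in Lyz1 Retnla phagocytes, MHC class II cells that express both of those genes. There Mgl2 had 375, 338, 405 and 451 CPM in the same order. Irf4 had 46.8, 74.6, 70.3 and 122 CPM there and Sirpa had 272, 206, 194 and 136 CPM. The 12 listed cDC2 markers outside the rule summed to 2775.5, 3190, 3772 and 3689 CPM in cDC2. Their sum in Lyz1 Retnla phagocytes was 3123, 3356, 2981 and 3540 CPM, so it did not set the classes apart. Mgl2, Irf4 and Sirpa were found in every library of cDC2, and a part of the members also carried macrophage RNA. C1qa reached 3 or more UMIs in 14 of 75 (18.7%), 31 of 153 (20.3%), 8 of 56 (14.3%) and 14 of 62 (22.6%) cDC2. The apolipoprotein gene Apoe summed to 9775, 8178, 7183 and 10755 CPM in those C1qa-positive members, against 56.6, 124, 98.6 and 344 CPM in members without C1qa.

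Lymphocyte markers were few in the cDC2, and markers of other myeloid cells were present. The 6 T cell markers summed to 2.77 to 18.0 CPM over the libraries and the 7 B cell markers to 71.8 to 129 CPM, with Ms4a1, Fcmr and Ebf1 at 0 in every library but WT laser. The 14 macrophage markers summed to 5497, 4094, 2817 and 6016 CPM in cDC2 of Nr4a1-/- laser, WT laser, Nr4a1-/- control and WT control eyes, against 28935, 33319, 38371 and 32032 CPM in MHC II macrophages. MHC II macrophages were cells with the same H2-Aa bound, at least 3 UMIs of C1qa and at most 1 of the 4 cDC2 markers. The 10 classical monocyte markers summed to 4318, 6360, 6292 and 7000 CPM in cDC2, against 11616, 13940, 7848 and 8448 CPM in MHC II macrophages. The 5 NK cell markers summed to 397, 338, 212 and 198 CPM, most of it Klrd1. All 5 were detected in Nr4a1-/- laser cDC2, where Gzma was called higher than in Nr4a1-/- control. The 6 neutrophil markers summed to 101, 323, 20.5 and 56.0 CPM, and single cells held 97.4% and 97.7% of the S100a9 UMIs of the Nr4a1-/- laser and WT laser members.

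The share of cDC2 among kept cells was higher after laser than in control eyes of either genotype. In Nr4a1-/- eyes cDC2 made up 4.55% (3.59 to 5.67) of kept cells after laser and 2.77% (2.10 to 3.59) in control, a ratio of 1.64 (1.15 to 2.36). In WT eyes they made up 4.04% (3.43 to 4.71) after laser and 1.65% (1.27 to 2.11) in control, a ratio of 2.45 (1.81 to 3.35). Between genotypes the share was 1.68 times (1.15 to 2.45) as high in Nr4a1-/- control as in WT control eyes, and 1.13 times (0.843 to 1.50) as high in Nr4a1-/- laser as in WT laser eyes. These 4 ratios reuse the same 4 libraries. The last ratio compares libraries of unlike depth, with a median of 6539 and 14068 UMIs per cDC2. With each cell thinned to 2000 UMIs, cDC2 made up 2.76% (1.92 to 3.84) of Nr4a1-/- laser and 1.75% (1.34 to 2.24) of WT laser cells. With 3 of the 4 markers asked for, they made up 1.33% and 2.03%.

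**Figure D1:**
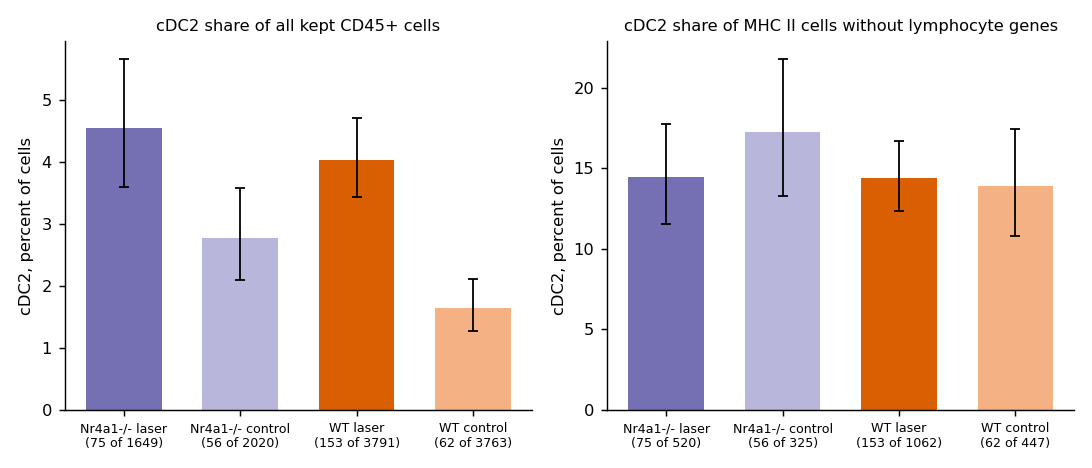
Share of cDC2 in each library among kept cells (left) and among MHC class II cells without lymphocyte genes (right), in percent with bars from 0. Lines are exact 95% counting intervals, with 1 pooled library per group. Among kept cells both laser libraries lie above both control libraries, at 4.55% and 4.04% against 2.77% and 1.65%. Among MHC class II cells they do not, at 14.4% (Nr4a1-/-) and 14.4% (WT) after laser against 17.2% and 13.9% in control.

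Other MHC class II cells also took larger shares after laser. Among non-lymphoid cells past the H2-Aa bound, cDC2 made up 14.4% in Nr4a1-/- laser against 17.2% in Nr4a1-/- control eyes, and 14.4% in WT laser against 13.9% in WT control eyes, ratios of 0.837 and 1.04. The share of MHC II macrophages among kept cells was 2.09 times its control value in Nr4a1-/- and 2.44 times in WT eyes. B cells, which entered the same denominator, stood at 0.312 and 0.490 of their control share. A rule asking for 3 of the 4 markers turned the ratio of the Nr4a1-/- pair round, to 0.728. Detection of markers depends on depth, and the median Nr4a1-/- cDC2 held 6539 UMIs after laser against 11934 in control. With each cell thinned to 2000 UMIs, the main rule gave 2.76% (1.92 to 3.84) after laser and 1.59% (1.08 to 2.26) in control. The part of depth in the reversal was not tested.

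The cDC1-like cells, with Xcr1 or Clec9a, had share ratios of 1.19 (0.726 to 1.95) in Nr4a1-/- and 1.27 (0.864 to 1.88) in WT eyes, both with intervals that held 1. Migratory DC-like cells, with Ccr7 and Fscn1, had ratios of 3.98 and 7.11, from 13 against 4 and 43 against 6 cells.

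Nr4a1 itself was checked first. Nr4a1 had 61.0 CPM in Nr4a1-/- laser against 309 CPM in WT laser cDC2, and 103 CPM in Nr4a1-/- control against 257 CPM in WT control cDC2. The ratios were 0.198 (0.136 to 0.279) after laser and 0.399 (0.298 to 0.528) in control. Both knockout libraries thus held less Nr4a1 RNA, in 24 and 34 cells with a UMI against 120 and 47 in WT, but not none, and a 3' tag need not lie in the disrupted part. Nr4a1 lies at chr15:101254269-101274795 on the plus strand of GRCm38. The related receptors Nr4a2 (327, 284, 372 and 274 CPM in Nr4a1-/- laser, WT laser, Nr4a1-/- control and WT control cDC2) and Nr4a3 (354, 329.8, 234 and 243 CPM) did not pass the call in either pair.

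For each pair of libraries a gene was called when its CPM ratio was at least 2-fold with a counting interval that left out 1, among genes with an expected count of at least 10 in the smaller library. Laser against control called 310 of 5785 genes higher (5.36%) and 203 lower (3.51%) in Nr4a1-/- cDC2, and 176 of 6382 higher (2.76%) and 228 lower (3.57%) in WT cDC2. With scaling by the median ratio over genes in place of the total, the split was 252 higher and 272 lower in Nr4a1-/- and 216 higher and 186 lower in WT. Of 5635 genes tested in both genotypes, 57 were higher after laser in both (1.01%) and 21 were lower in both (0.373%). Of these, 28 higher and 9 lower genes were also called without the C1qa-positive members, without the highest cell of each gene and under the other scaling, a subset chosen after the values were seen. Thinning every cell to 2000 UMIs, which also leaves fewer genes to test, kept 8 of the 57 higher genes (Ifitm1, Il1r2, Cd72, Mdh2, Timd4, Tnfaip2, Thada and Htr7) and 1 of the 21 lower genes. A bound of 20 on the expected count kept 30 and 12 of them.

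Ifitm1, which encodes an interferon-inducible membrane protein, led the genes called higher in both genotypes and under all 3 alternatives. Ifitm1 reached 2021 CPM in Nr4a1-/- laser against 41.0 CPM in Nr4a1-/- control cDC2, and 1010.1 CPM in WT laser against 50.3 CPM in WT control cDC2. The ratios were 49.3 (33.9 to 74.5) and 20.1 (14.4 to 28.9). At least 1 UMI was found in 44 of 75 cells of Nr4a1-/- laser and 77 of 153 of WT laser, against 13 of 56 and 13 of 62 in the controls.

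Thinned to 2000 UMIs per cell, Ifitm1 was seen in 52.7% and 32.0% of laser cDC2 of Nr4a1-/- and WT eyes and in 14.3% and 8.06% of control cDC2. B cells, which should lack it, showed it in 5.80%, 1.24%, 1.50% and 1.98% of thinned cells in the same order. The unthinned Ifitm1 shares of B cells were 7.77%, 2.76%, 1.98% and 3.03%, at median depths of 2322, 4561, 4427 and 4328 UMIs. MHC II macrophages held Ifitm1 at 80.9, 110, 6.07 and 1.98 CPM.

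Surface and receptor genes rose with it. Epcam, an epithelial adhesion molecule also carried by Langerhans-type cells and some DCs, had 106 and 81.7 CPM after laser in Nr4a1-/- and WT cDC2, against 1.46 and 5.75 CPM in control. The Epcam ratios were 72.3 (12.5 to 2904) and 14.2 (5.46 to 52.8), the first resting on 1 UMI in control. Il1r2, the decoy receptor for interleukin-1, had 907 and 525 CPM after laser against 201 and 208 CPM in control, ratios of 4.52 (3.73 to 5.50) and 2.52 (2.12 to 3.01). Both laser libraries lay above both control libraries for each of these genes, an order that follows largely from their choice by calls in both genotypes.

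Kit, the receptor for stem cell factor, had 70.0 and 54.0 CPM after laser in Nr4a1-/- and WT cDC2, against 16.1 and 12.9 CPM in control. Csf2rb2, a beta chain of the interleukin-3 receptor, had 55.7 and 61.4 CPM against 16.1 and 27.3 CPM. These were 2 of the 7 growth factor receptor genes listed, of which 6 were tested in Nr4a1-/- and 7 in WT cells, and no other was called, beside 5.36% of all genes higher in Nr4a1-/- and 2.76% in WT. Kit and Csf2rb2, like Epcam, were not called in thinned cells. Cd72, a C-type lectin best known on B cells, had 249.5 and 167 CPM against 63.0 and 43.1 CPM. Timd4, a phosphatidylserine receptor, had 178 and 121 CPM against 48.3 and 46.0 CPM, and Mdh2, mitochondrial malate dehydrogenase, had 454 and 349 CPM against 126 and 109 CPM. The Tim-4 ADT, the protein of Timd4, did not rise in both genotypes. Its share of ADT counts after laser was 1.30 (0.890 to 1.89) times control in Nr4a1-/- and 0.464 (0.358 to 0.601) times in WT cDC2. It was found on 28.0% against 16.1% of Nr4a1-/- and 19.6% against 25.8% of WT cDC2, at unequal depth.

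Itgae, which encodes the CD103 integrin chain, had 50.3 and 35.1 CPM after laser in Nr4a1-/- and WT cDC2, against 0 and 1.44 CPM in control. Against the floor of 3 UMIs in the Nr4a1-/- control library, Itgae was at least 11.4-fold higher after laser. Itgae was not among the 28. Itgax, the CD11c gene, had 178 and 129 CPM after laser against 103 and 56.0 CPM in control, and passed the call in WT alone, at 2.30 (1.64 to 3.30). The difference of the Itgax ratios between genotypes was not tested.

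**Figure D2:**
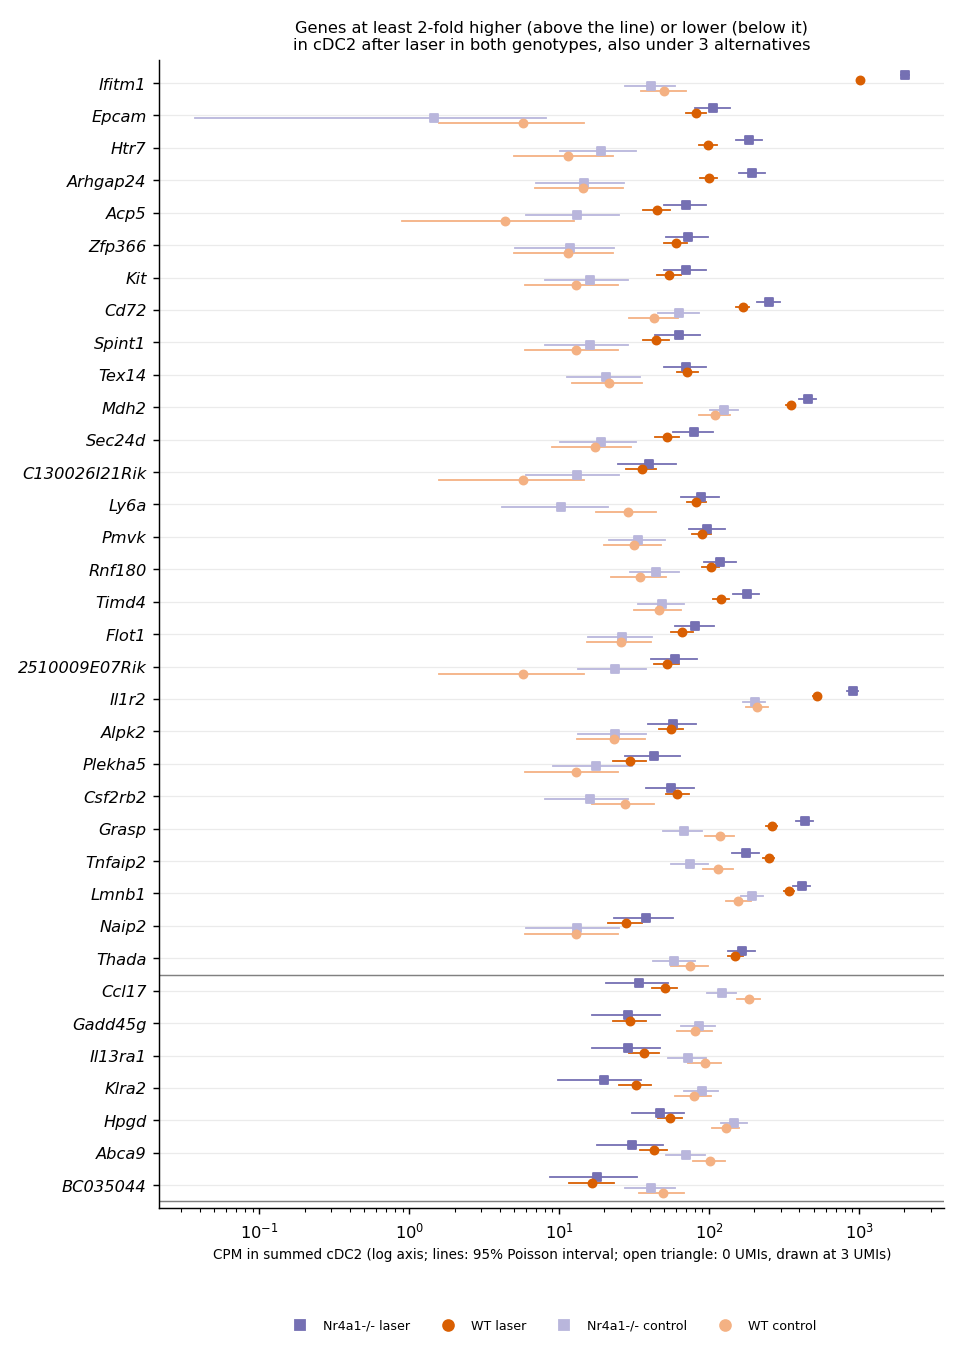
Level of named genes in summed cDC2 of each library (CPM, log axis), for the 28 genes higher (above the line) and 7 of the 9 genes lower (below it) after laser in both genotypes and under 3 alternatives. Each point is 1 pooled library with a 95% Poisson interval. Ifitm1 lies at 2021 and 1010.1 CPM in the laser libraries against 41.0 and 50.3 CPM in the controls, and Ccl17 at 34.1 and 50.8 against 122 and 184 CPM.

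Among genes lower after laser, Ccl17, a ligand of CCR4 made by DCs, had 34.1 and 50.8 CPM in Nr4a1-/- and WT laser cDC2 against 122 and 184 CPM in control, ratios of 0.281 and 0.276. Hpgd, which breaks down prostaglandins, had 46.7 and 55.0 CPM against 146 and 129 CPM. Both were lower in each laser library than in either control, which again follows largely from how they were chosen. Il13ra1, a chain of the interleukin-13 receptor, had 28.7 and 36.9 CPM against 71.8 and 93.4 CPM.

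The cDC2 of laser eyes were not uniform for Ifitm1. At a bound set after the values were seen, 36 of 75 (48.0%, 36.3 to 59.8) Nr4a1-/- laser and 46 of 153 (30.1%, 22.9 to 38.0) WT laser cDC2 held 3 or more Ifitm1 UMIs, against 3 of 56 (5.36%) and 2 of 62 (3.23%) in control. In laser cDC2, 8 and 31 cells lay below the bound with 1 or 2 UMIs, and 31 and 76 held none. The cells with 3 or more UMIs were also deeper, with medians of 7673 against 5625 UMIs in Nr4a1-/- and 14219 against 12867 UMIs in WT. All values of this split are descriptions with no test.

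Il1r2, Epcam, Kit and Itgae were higher in the Ifitm1-high cells of both laser libraries. Il1r2 had 1389.7 CPM in Ifitm1-high against 232 CPM in Ifitm1-zero cells of Nr4a1-/- laser eyes, and 1287 against 132 CPM in WT laser eyes. Epcam had 188 against 5.04 CPM and 213 against 23.5 CPM, and Kit had 120.1 against 5.04 CPM and 137 against 19.6 CPM. Itgae had 87.7 against 5.04 CPM in Nr4a1-/- and 114 against 0.979 CPM in WT laser cells. Spp1, also called higher after laser, had 422 against 85.6 CPM in Nr4a1-/- and the reverse, 24.7 against 109.6 CPM, in WT. A single cell held most of the Spp1 UMIs of the Nr4a1-/- laser cDC2. H2-Aa lay closer, at 8549 against 8053 CPM and 8535 against 8310 CPM. Of the rule's markers, Cd209a was lower in Ifitm1-high cells, at 133 against 619 CPM in Nr4a1-/- and 190 against 597 CPM in WT. Clec10a was lower too, at 344 against 438 CPM and 202 against 305 CPM. Flt3 was higher, at 153 against 55.4 CPM and 150 against 75.4 CPM. Zbtb46 had 48.7 against 90.7 CPM and 58.7 against 55.8 CPM. Outside the rule, Mgl2 was lower in Ifitm1-high cells, at 153 against 806 CPM and 103 against 427 CPM.

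Ccr2 and Lyz2 were higher in the Ifitm1-zero cells of both libraries. Ccr2, the receptor that draws monocytes into tissue, had 153 CPM in Ifitm1-high against 579 CPM in Ifitm1-zero cells of Nr4a1-/- laser eyes, and 216 against 652 CPM in WT laser eyes. Lyz2, the lysozyme of myeloid cells, had 1244 against 5842 CPM and 1286 against 6225 CPM. Apoe differed in direction between the genotypes, with 3702 against 1994 CPM in Nr4a1-/- and 841 against 2824 CPM in WT. C1qa went the same way, with 487 against 428 CPM and 86.4 against 440 CPM. Apoe lay mainly in the few C1qa-positive laser members, at 9775 CPM in Nr4a1-/- and 8178 CPM in WT. Members without C1qa had 56.6 and 124 CPM. The split was not repeated without the C1qa-positive members.

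Some surface proteins also differed across the split. CD11c ADT was found on 91.7% of Ifitm1-high against 58.1% of Ifitm1-zero cells of Nr4a1-/- laser eyes and on 93.5% against 77.6% in WT laser eyes. CD103 ADT was found on 25.0% against 6.45% and on 52.2% against 22.4%. Tim-4, the product of Timd4, was found on 41.7% against 16.1% and on 32.6% against 11.8%. CD301b was the reverse, on 36.1% against 64.5% and on 32.6% against 57.9%. B cells, most of which should lack these proteins, held a CD11c UMI in 32.0% (Nr4a1-/- laser) and 34.0% (WT laser) of cells, CD103 in 16.5% and 15.95%, Tim-4 in 5.83% and 9.51% and CD301b in 20.4% and 16.3%, at median depths of 92 and 211.5 ADT UMIs against 253 and 515 on cDC2. The CD103 share of the Ifitm1-zero cells of Nr4a1-/- laser eyes was thus at background. The other CD103 shares lay above those of B cells, but were not compared at equal depth, so their distance from background is uncertain. CD11b was on every cell, at a median of 30.5 against 37 UMIs per cell in Nr4a1-/- and 42 against 69 in WT. I-A/I-E was also on every cell, at a median of 119 against 75 UMIs in Nr4a1-/- and 175 against 168.5 in WT.

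**Figure D3:**
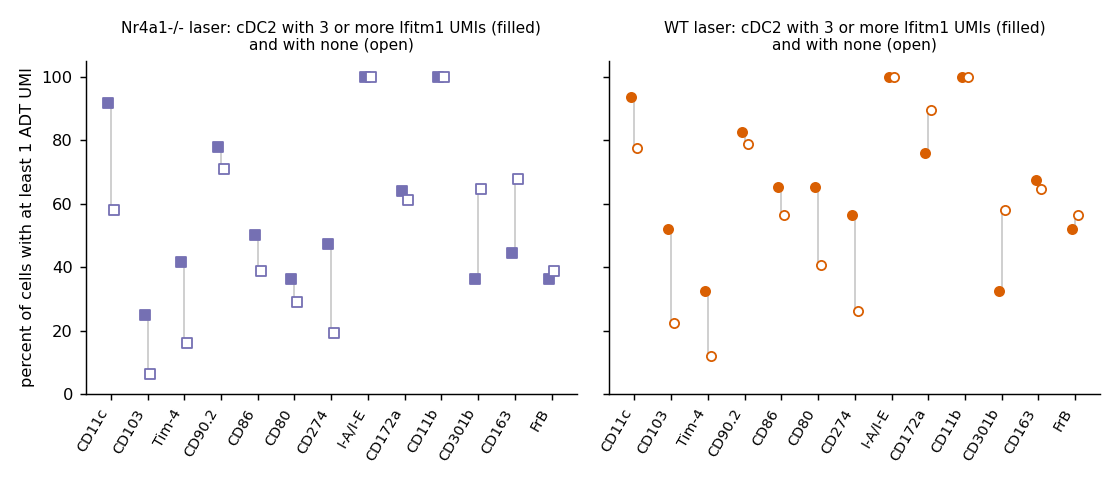
Percent of laser cDC2 with at least 1 UMI of each ADT, in cells with 3 or more Ifitm1 UMIs and in cells with none, for Nr4a1-/- laser (36 and 31 cells) and WT laser (46 and 76 cells). CD11c lies at 91.7% against 58.1% and at 93.5% against 77.6%, while CD301b lies at 36.1% against 64.5% and at 32.6% against 57.9%.

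Interferon-response genes rose in part. Of the 20 listed, 6 of 16 tested were higher after laser in Nr4a1-/- cDC2 (Irf7, Ifit2, Ifit3, Rsad2, Usp18 and Gbp2) and 5 of 18 in WT cDC2 (Isg15, Ifit2, Ifit3, Rsad2 and Oasl2), with none lower, beside 5.36% and 2.76% of all genes. The median log2 ratio was 0.70 in Nr4a1-/- and 0.36 in WT, against 0.05 and -0.05 over all tested genes. Ifit3 had 46.7 and 69.7 CPM after laser against 5.86 and 11.5 CPM in control, and Rsad2, the antiviral enzyme viperin, had 55.7 and 90.1 CPM against 1.46 and 21.6 CPM. Ifit2 had 71.8 and 43.4 CPM against 5.86 and 14.4 CPM. Without the C1qa-positive members 0 members of the list were higher in Nr4a1-/- and 5 in WT, and without the highest cell of each gene 3 and 6. Ifitm3, the most abundant member, was not called, at 2205 and 2358 CPM against 2045 and 2342 CPM. The listed genes summed to 3991 and 4416 CPM after laser in Nr4a1-/- and WT cDC2, against 3145 and 3925 CPM in control. The sum also rose in cDC1-like cells, at 2442 and 2605 against 1987 and 2064 CPM. MHC II macrophages had 3787 and 5129 against 3137 and 3442 CPM, and Lyz1 Retnla phagocytes 3535 and 3069 against 2098 and 2241 CPM. B cells had 2861 and 2249 against 2009 and 2078 CPM, so the rise was not particular to cDC2.

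Between genotypes 4 calls were made in the list. In control cDC2 3 of 14 tested members were lower in Nr4a1-/- than in WT (Irf7, Ifit1 and Gbp2) and none was higher, beside 5.3% of all genes lower, and the median log2 ratio was -0.44 against -0.06 over all tested genes. After laser 1 of 18, Ifit1, was lower and none higher, which is near the 2.39% of all genes, and the median was -0.42 against 0.05 over all tested genes. Ifit1 had 16.2 CPM in Nr4a1-/- laser against 44.3 CPM in WT laser, and 2.93 CPM in Nr4a1-/- control against 34.5 CPM in WT control cDC2. Its reads can be shared with its close relatives in the Ifit cluster. The Ifit1 ratios were 0.364 and 0.0849 (0.00973 to 0.342), the second resting on 2 UMIs in Nr4a1-/- control.

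The start regions of the genes that moved are printed because the interferon-stimulated response element, the site of interferon-regulated factors, can be read in them. The RefSeq windows of GRCm38.p6 run from 250 bases upstream to the transcription start. Capitals mark 2 copies of GAAA with any 2 bases between them, on either strand, which read as 2 copies of TTTC where the match is on the other strand. Ifit3 lies at chr19:34583279-34583528 on the plus strand, Rsad2 at chr12:26456453-26456702 on the minus strand, Ifit1 at chr19:34640639-34640888 on the plus strand and Cxcl10 at chr5:92348890-92349139 on the minus strand.
Ifit3: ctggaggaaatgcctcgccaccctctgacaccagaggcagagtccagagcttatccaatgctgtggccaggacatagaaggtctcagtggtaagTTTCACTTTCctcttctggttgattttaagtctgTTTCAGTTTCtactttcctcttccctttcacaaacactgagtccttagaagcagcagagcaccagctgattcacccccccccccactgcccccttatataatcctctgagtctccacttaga
Rsad2: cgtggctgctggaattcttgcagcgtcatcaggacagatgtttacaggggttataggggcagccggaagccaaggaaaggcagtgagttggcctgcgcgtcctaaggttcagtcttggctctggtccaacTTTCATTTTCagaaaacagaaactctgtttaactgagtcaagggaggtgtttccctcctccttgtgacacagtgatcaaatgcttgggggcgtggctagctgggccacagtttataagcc
Ifit1: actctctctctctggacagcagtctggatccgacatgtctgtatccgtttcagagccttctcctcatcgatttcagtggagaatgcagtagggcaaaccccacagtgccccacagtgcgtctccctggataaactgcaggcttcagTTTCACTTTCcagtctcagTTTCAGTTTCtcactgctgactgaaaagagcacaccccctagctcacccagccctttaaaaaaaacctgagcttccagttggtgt
Cxcl10: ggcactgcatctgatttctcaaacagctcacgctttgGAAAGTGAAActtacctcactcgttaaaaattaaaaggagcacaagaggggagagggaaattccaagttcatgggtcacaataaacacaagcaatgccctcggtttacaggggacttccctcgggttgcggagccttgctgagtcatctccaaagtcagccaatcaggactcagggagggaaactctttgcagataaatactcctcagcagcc
The matches began 156 and 122 bases before the start in Ifit3, 120 in Rsad2, 104 and 85 in Ifit1 and 213 in Cxcl10. Neither of 2 annotated start windows of Ifit2 held one. The motif was found in 978 of 32851 windows of this length (2.98%), and in 8 of the 14 interferon list genes that matched a window. A match describes the letters and not binding.

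Chemokine genes, which draw leukocytes, were called higher after laser in Nr4a1-/- and lower in WT cDC2, a difference that was not tested. Of 16 tested in each, 7 were higher and 1 lower after laser in Nr4a1-/- cDC2, against 0 higher and 6 lower in WT cDC2, beside 5.36% of all genes higher and 3.51% lower in Nr4a1-/- and 2.76% and 3.57% in WT. Ccl7, a monocyte attractant, had 291 CPM in Nr4a1-/- laser against 46.9 CPM in Nr4a1-/- control, and 231 CPM in WT laser against 569 CPM in WT control cDC2. Ccl8 had 210.0 against 1.46 CPM in Nr4a1-/- and 69.7 against 124 CPM in WT. The low point was the Nr4a1-/- control library, where 7 of 16 chemokines were lower than in WT control and none higher, beside 5.3% of all genes lower and 1.95% higher. Macrophage markers moved with it, with 6 of 13 lower in Nr4a1-/- control than in WT control, and 1 lower without the C1qa-positive members. Without those members 2 chemokines were higher and 2 lower after laser in Nr4a1-/-, 1 was higher and 3 lower in WT, and 6 were lower in Nr4a1-/- control than in WT control.

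Nr4a1-/- against WT called 123 of 6301 genes higher (1.95%) and 334 lower (5.3%) in control cDC2, and 94 of 5778 higher (1.63%) and 138 lower (2.39%) after laser. With median-ratio scaling the split was 171 higher and 283 lower in control and 64 higher and 179 lower after laser. Of 5568 genes tested in both, 23 were lower in both (0.413%) and 2 higher in both (0.0359%). Of the 23, 7 were also called under each of the 3 alternatives named above: Plcb1, Cxcl9, Cxcl10, Nrg1, Gpr65, Gm10076 and Nr4a1. In thinned cells 2 of the 23, Cxcl10 and Nr4a1, and neither of the 2 higher genes were called.

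Among them were the ligands of CXCR3. Cxcl10 had 44.9 CPM in Nr4a1-/- laser against 297 CPM in WT laser, and 43.9 CPM in Nr4a1-/- control against 243 CPM in WT control cDC2. The ratios were 0.151 (0.0971 to 0.225) and 0.181 (0.118 to 0.268). Cxcl9 had 21.5 against 90.1 CPM after laser and 35.2 against 201 CPM in control, ratios of 0.239 and 0.175. Both chemokines attract T cells and NK cells and are induced by interferon-gamma.

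A few cells carried these values. Cxcl10 was found in 6 of 75 Nr4a1-/- laser against 39 of 153 WT laser cDC2, and in 8 of 56 Nr4a1-/- control against 14 of 62 WT control cDC2. Thinned to 2000 UMIs, the Cxcl10 shares were 3 of 74 against 23 of 153 cells after laser and 4 of 56 against 8 of 62 in control, and B cells showed 1 of 69 against 6 of 323 and 2 of 401 against 9 of 655. Cxcl9 was found in 3 and 12 cells after laser and in 2 and 11 in control. In MHC II macrophages Cxcl10 had 84.8 CPM in Nr4a1-/- laser against 202 CPM in WT laser, and 176 against 229 CPM in control.

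Plcb1, a phospholipase C, had 5.39 CPM in Nr4a1-/- laser against 36.0 CPM in WT laser, and 20.5 against 109 CPM in control cDC2. Gpr65, a proton-sensing receptor, had 32.3 against 103 CPM and 23.4 against 54.6 CPM. Nrg1, the growth factor neuregulin, was at 0 in Nr4a1-/- laser against 47.1 CPM in WT laser, and 20.5 against 51.7 CPM in control. Gm10076 was also lower in Nr4a1-/- B cells, at 65.7 against 160 CPM after laser and 55.3 against 229 CPM in control, so its difference was not particular to cDC2.

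Spp1, which encodes osteopontin, was higher in Nr4a1-/- cDC2, at 264 against 76.2 CPM after laser and 70.3 against 15.8 CPM in control. One cell held 53.1% of the Spp1 UMIs in Nr4a1-/- laser. Without the C1qa-positive members the Spp1 ratio after laser turned round, to 0.462 (0.214 to 0.889).

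**Figure D4:**
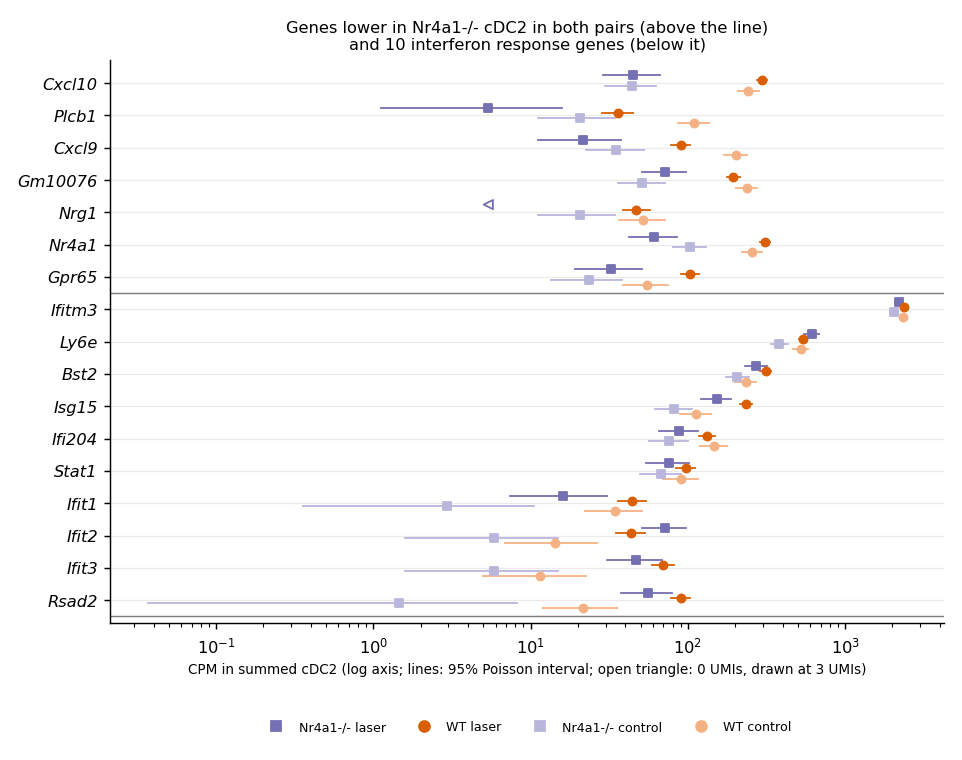
Level of genes lower in Nr4a1-/- than in WT cDC2 in both pairs (above the line) and of 10 interferon-response genes (below it), in CPM on a log axis, 1 point per pooled library with a 95% Poisson interval and an open triangle for Nrg1 at 0 UMIs, drawn at the floor of 3. Cxcl10 lies at 44.9 and 43.9 CPM in the Nr4a1-/- libraries against 297 and 243 CPM in the WT libraries.

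Of 12 tested MHC class II genes, 1 was higher after laser in Nr4a1-/- (H2-Oa) and 1 in WT (H2-DMb2), beside 5.36% and 2.76% of all genes, and none was called between genotypes. The peptide-loading chaperone gene Cd74 had 20622, 21596, 24296 and 19423 CPM in Nr4a1-/- laser, WT laser, Nr4a1-/- control and WT control cDC2. The costimulatory gene Cd86 had 777, 687, 869 and 844 CPM in the same order. Of the checkpoint ligands, Pdcd1lg2 (PD-L2) was higher after laser in both genotypes, at 34.1 and 31.9 CPM against 7.32 and 7.19 CPM in control. Pdcd1lg2 was not among the 28 genes called under the 3 alternatives.

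Cell cycle genes were called higher after laser in Nr4a1-/- cDC2, and the difference between genotypes was not tested. Of 9 tested, 6 were higher and none lower after laser in Nr4a1-/- cDC2, against none higher and 1 lower in WT, beside 5.36% of all genes higher and 3.51% lower in Nr4a1-/- and 2.76% and 3.57% in WT. Without the C1qa-positive members 5 were higher in Nr4a1-/-. The 12 listed genes summed to 1540 CPM after laser against 826 CPM in control in Nr4a1-/- cDC2. The sum was also higher after laser in Nr4a1-/- cDC1-like cells (2173 against 1198 CPM) and B cells (1051 against 493 CPM). MHC II macrophages had 1022 against 608 CPM and Lyz1 Retnla phagocytes 913 against 394 CPM. The few migratory DC-like cells went the other way, at 299 against 788 CPM, so the rise was not particular to cDC2. Mki67 had 115 CPM in Nr4a1-/- laser against 51.3 CPM in Nr4a1-/- control, and 65.6 CPM in WT laser against 77.6 CPM in WT control. It was found in 12 cells in each Nr4a1-/- library. In the Nr4a1-/- control library 1 cell held 79.2% of the Top2a UMIs.

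Of 21 tested immediate-early and dissociation genes, 4 were higher (Hspa1a, Hspa1b, Hsp90aa1 and Dnajb1) and 3 lower (Fos, Egr1 and Egr2) in Nr4a1-/- control than in WT control cDC2, beside 1.95% and 5.3% of all genes. Hspa1a, which shares sequence with Hspa1b, had 1269.9 CPM in Nr4a1-/- control against 63.2 CPM in WT control cDC2, with 61.0 and 50.8 CPM in the laser libraries of Nr4a1-/- and WT eyes. Hsp90aa1 had 1172 against 425 CPM in control. Fos had 838 against 1735 CPM and Egr1 had 284 against 907 CPM in control. The part of these genes in the genotype calls of the control pair was not tested.

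The surface proteins were not used by the rule and could be tested over the 4 libraries, by edgeR's quasi-likelihood test on ADT counts summed per library and class with library as a block. The classes were still chosen by RNA, and Clec10a of the rule shares sequence with the CD301b gene Mgl2. A CD301b difference is therefore not independent of the rule. Against cDC1-like cells 9 of 86 ADTs passed an adjusted p of 0.05 (10.5%), and each lay the same way in all 4 libraries. These p-values measure the spread over 4 libraries of different conditions. CD301b was higher on cDC2, with a log2 fold change of 2.99 (SE 0.408, edgeR adjusted p = 0.000244). It took 1.40%, 0.391%, 0.872% and 0.708% of ADT counts on cDC2 of Nr4a1-/- laser, WT laser, Nr4a1-/- control and WT control eyes, against 0.0792%, 0.186%, 0.0603% and 0.0597% on cDC1-like cells. The groups did not overlap, and 1 cell held 197 of the 392 CD301b UMIs of Nr4a1-/- laser cDC2.

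CD103 was lower on cDC2, with a log2 fold change of -4.49 (SE 0.712, edgeR adjusted p = 0.000676), at 0.0641%, 0.110%, 0.213% and 0.0268% of ADT counts against 0.928%, 0.706%, 8.93% and 1.15% on cDC1-like cells. CD11b, the integrin used to tell cDC2 from cDC1, was higher by 2.11 (SE 0.542, adjusted p = 0.0224), at 11.5%, 12.4%, 16.1% and 14.0% against 2.91%, 4.15%, 1.32% and 4.21%. CD172a, the SIRP alpha protein, was higher by 1.46 (SE 0.305, adjusted p = 0.00549). CD163, FrB and CD169, proteins also found on macrophages, were higher by 2.21, 2.29 and 1.15, and CD11c and CD11a were lower by log2 fold changes of -3.46 and -1.93.

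CD103 and CD301b passed under every alternative run, and without the Nr4a1-/- control library these 2 were the ones that remained. The FrB difference turned round without the C1qa-positive members, to -0.31. In the cDC1-like cells of Nr4a1-/- laser eyes 1 cell held 5836 of 6102 CD11c UMIs, and without the highest cells the CD11c difference was -2.49. I-A/I-E, CD86, CD274, CD40, F4/80, CD192 (CCR2), CX3CR1 and CD64 did not pass, nor did CD80 at an adjusted p of 0.0679. The signal of some ADTs differed between libraries in other classes too. CD11c summed to 19 UMIs on Nr4a1-/- control against 414 on WT control cDC2, and was on 3.95% against 35.1% of B cells. CD103 was on 42.7% of B cells in Nr4a1-/- control against 8.47% in WT control. CD64 summed to 18 UMIs on MHC II macrophages of WT control against 3389 in WT laser eyes. Beyond leaving out each library, the effect of this on the calls was not tested.

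**Figure D5:**
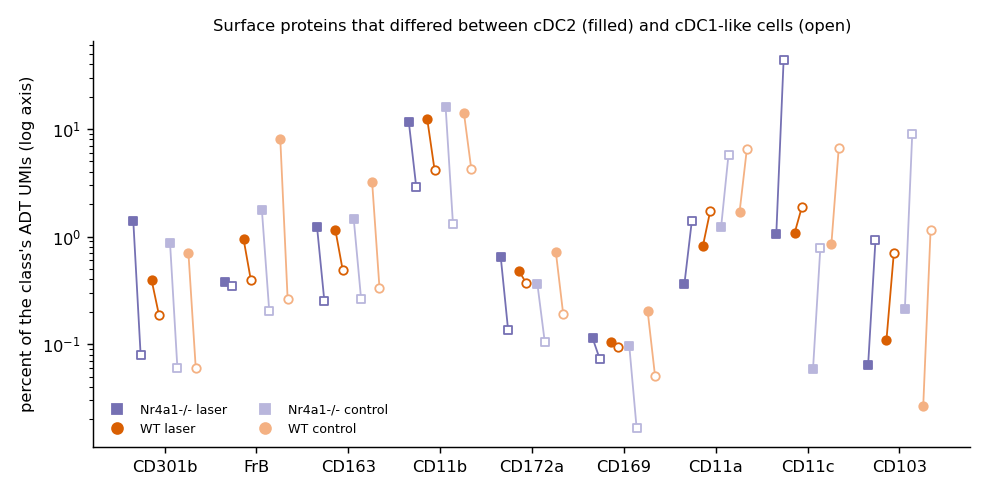
Share of ADT counts (percent, log axis) for ADTs that differed between cDC2 and cDC1-like cells, 1 point per library, filled for cDC2 and open for cDC1-like cells, with a line joining the classes of a library. CD301b lies at 0.391% to 1.40% on cDC2 against 0.0597% to 0.186% on cDC1-like cells, and CD103 at 0.0268% to 0.213% against 0.706% to 8.93%.

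Against the 2 macrophage-related classes no ADT passed. Against Lyz1 Retnla phagocytes, MHC class II cells that express both genes, edgeR called 0 of 86 ADTs (0%), with 13 at an unadjusted p under 0.05 and 9 called by DESeq2, and the smallest adjusted p was 0.0797 for CD301b, higher on cDC2 by 1.87 in 4 of 4 libraries. Against MHC II macrophages edgeR called 0 of 86 (0%), with 22 at an unadjusted p under 0.05 and 18 called by DESeq2, and the smallest adjusted p was 0.0519, for CD11c (1.80 higher) and C5AR, which is CD88 (log2 fold change -1.49).

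RNA differences from these classes follow the rule in part and are descriptions. Against cDC1-like cells 221 of 4067 genes were at least 2-fold higher and 97 lower in all 4 libraries. Mgl2 had 402, 388, 794 and 757 CPM in cDC2 of Nr4a1-/- laser, WT laser, Nr4a1-/- control and WT control eyes against 10.1, 17.9, 0 and 0 CPM in cDC1-like cells. Tlr3, the sensor of double-stranded RNA that cDC1 carry, had 3.59, 4.62, 1.46 and 7.19 CPM against 165, 126, 138 and 138 CPM.

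Against Lyz1 Retnla phagocytes 107 of 3132 genes were higher and 49 lower, and against MHC II macrophages 127 of 5674 were higher and 219 lower. Klrd1, the lectin CD94, was at 339, 337, 211 and 188 CPM in cDC2 against 9.36, 12.1, 2.81 and 6.86 CPM in Lyz1 Retnla phagocytes, and was likewise higher than in MHC II macrophages. The inhibitory receptor gene Btla was higher than in both classes. Against migratory DC-like cells 54 of 635 genes were higher and 21 lower, on few cells.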

How the data were processed

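Live CD45+ cells sorted from pooled posterior eye cups were profiled by the authors with 10x Genomics droplet sequencing and an 87-antibody ADT panel. The deposited values are unnormalised UMI counts, which the authors made with Cell Ranger 7.0.1 against the mouse genome (mm10). The kit version differs between labels (v2) and methods (v3). All 4 ADT samples carry Nr4a1-/- and sham in their genotype and treatment labels, and were mapped by their titles, which match the RNA libraries.

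Kept cells had a mitochondrial share of no more than 15% and between 200 and 5000 genes, and cDC2 were taken by the rule stated above. The members and gene lists were chosen with earlier results of these data known. UMIs were summed per library and class. Ratios carry exact conditional binomial intervals and shares exact Clopper-Pearson intervals, at 95%, and fewer than 20 summed ADT counts left an ADT out. Intervals and floors of 3 counts cover counting error only.

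Named genes were Nr4a1 and the genes of the rule, up to 10 genes per direction called in both pairs of a comparison or, against another class, at least 2-fold in all 4 libraries, list members with the highest summed level or called in both pairs, genes called in opposite directions, and a fixed set of ADTs. Genes named for a split by Ifitm1 or for holding under 3 alternatives, and genes beyond these, were chosen after their values were seen. Some genes are not reported here. ADTs were tested with edgeR 4.0.16 (TMM, quasi-likelihood, Benjamini-Hochberg), with DESeq2 1.42.0 as an alternative. The scripts were tested on simulated data. R 4.3.3 and Python 3.11.15 were used, with scipy 1.17.1, numpy 2.4.6 and pandas 2.3.3, and figures were drawn with matplotlib 3.10.9.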

Additional observations from a re-analysis of the deposited data

Results flagged for a closer look

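In cDC2, 18 of 5635 genes tested in both genotypes passed the 2-fold call after laser in opposite directions in the 2 genotypes. Beside them, 5.36% of all genes were called higher and 3.51% lower in Nr4a1-/-, and 2.76% and 3.57% in WT. Of 5568 genes tested in control and after laser, 18 passed it in opposite directions between Nr4a1-/- and WT, 9 of the first 18 and 9 others. Beside these, 1.95% of all genes were higher and 5.3% lower in control, and 1.63% and 2.39% after laser. How many opposite calls unrelated pairs would give was not computed. These differences between pairs were not tested because each group was 1 library. The values are the log2 laser ratio in Nr4a1-/- minus that in WT, which is also the log2 ratio of Nr4a1-/- over WT after laser minus that in control. Of the first 18, the chemokine and macrophage genes Ccl12 at 5.38 (0 UMIs in Nr4a1-/- control, set to the floor of 3), Ccl7 at 3.93 and Pf4 at 3.15 were higher after laser in Nr4a1-/- and lower in WT. So were the histone and proliferation genes Hist1h1b at 7.83, Hist1h3c at 6.29 (0 UMIs in Nr4a1-/- control, set to the floor), Hist2h2ac at 5.03, Hist1h4d at 4.87, Hist1h1e at 4.22, Birc5 at 2.36 and Ckap5 at 2.26. Histone genes of the clusters share sequence and are uncertain. Also in this direction were Snx24 at 3.85, Bcl2 at 2.76, Xdh at 2.35, Cul2 at 2.31 and Prdx4 at 2.25. Selp at -5.02, Mmp12 at -3.91 and Areg at -3.81 were lower after laser in Nr4a1-/- and higher in WT.

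Of the 9 others, Ccl8 at 7.99, Pclaf at 3.52 and Gm34455 at 2.68 were higher in Nr4a1-/- than in WT after laser and lower in control. Magohb at -3.14, Wnt11 at -3.0, Slc7a11 at -2.78, Tnfsf9 at -2.48, Gk at -2.35 and Mrpl48 at -2.15 were lower in Nr4a1-/- than in WT after laser and higher in control. Tnfsf9, the ligand of 4-1BB, had 75.4 CPM in Nr4a1-/- laser against 209.7 CPM in WT laser, and 256 CPM in Nr4a1-/- control against 128 CPM in WT control cDC2.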

How the results depend on the processing

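No paired analysis was possible because each condition was 1 library, so no replicate number pairs samples across groups. Leaving out the highest cell, and the subsets built on it, were chosen after seeing the data. The share ratio of laser over control was 1.04 (WT) and 0.837 (Nr4a1-/-) among MHC class II cells, and 0.728 (Nr4a1-/-) with 3 markers, and that of Nr4a1-/- over WT after laser was 1.58 in thinned cells and 0.657 with 3 markers. Called genes numbered 404 (laser in WT), 513 (laser in Nr4a1-/-), 457 (genotype in control) and 232 (genotype after laser). An expected count of at least 5 gave 620 and 398 for laser in WT and genotype after laser, a bound of 20 gave 215, 288, 261 and 106, thinning gave 125, 122, 114 and 108, and leaving out C1qa-positive members gave 296 for genotype in control. Of the genes shared by both pairs, a bound of 5 gave 37 lower after laser and 5 higher in Nr4a1-/-, a bound of 20 gave 30, 12, 1 and 11, thinning gave 14, 6, 1 and 8 (of which 8, 1, 0 and 2 were among the main ones), and leaving out C1qa-positive members gave 10 lower in Nr4a1-/-. ADT calls against cDC1-like cells numbered 5 without C1qa-positive members, and 2 to 12 when each library was left out. Against Lyz1 Retnla phagocytes they numbered 3 without normalization, 9 by DESeq2, 13 without C1qa-positive members, 9 without the highest cell and 0 to 5 without 1 library. Against MHC II macrophages they numbered 2, 18, 15 and 15 in that order, and 0 to 9 without 1 library. Directions reversed for Gm15726 (1.11, thinned), Hbegf (2.23 and 1.17, without C1qa-positive members), S100a9 (0.288 without those members and 0.407 without the highest cell), Spp1 (0.462) and FrB (-0.31), both without those members. The cause was not tested. In all 71 main values stayed, 37 moved and 3 reversed, and 472 values of named genes stayed, 67 moved, 14 lost the call and 7 reversed. The Nr4a1-/- laser cDC2, at 557016 UMIs in all, set the precision of their pairs.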
